A study of Homo sapiens with 16 samples.

Results

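Nuclear factor kappa B (NF-κB) was followed through 10 genes, the 5 genes of its subunits (*RELA*, *RELB*, *REL*, *NFKB1* and *NFKB2*), 3 genes of its feedback inhibitors (*NFKBIA*, *NFKBIE* and *TNFAIP3*) and 2 induced target genes (*ICAM1* and *BIRC3*). They were chosen by name, with earlier results of these data known. Counts of members beside shares of all genes are therefore descriptions and no tests. All 10 of 10 had a row in both expression tables, one with 13559 genes for the first experiment and one with 14024 for the second. RNA was sequenced from LN229, a cell line from a human glioblastoma (GBM), in 16 libraries of 8 groups with 2 libraries each. In the first experiment, untreated cells were kept in regular culture, which is complete medium, or in ischemic culture, which is a medium low in glucose, glutamine and serum combined with hypoxia. In the second, both cultures were combined with the vehicle DMSO, with VX745, an inhibitor of the kinase p38α, or with MK25, an inhibitor of the kinase MK2. The labels name no experiment or batch, and an experiment is here a set of libraries whose values were deposited together. Whether the 2 sets were independent repeats is not stated. The study used these libraries to ask how ischemia changes gene expression in GBM cells and how much of the inflammatory part of that change depends on p38 and MK2. All groups come from 1 cell line, and the labels do not say whether the replicates were separate cultures, so p-values measure the spread between these libraries, which may be technical.

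NF-κB is a family of transcription factors that act as dimers. In resting cells the dimers are held in the cytoplasm by inhibitor proteins of the IκB family, and upstream signals from receptors of tumor necrosis factor (TNF), interleukin 1 or Toll-like receptors lead to destruction of the inhibitor and entry of the dimer into the nucleus. There it switches on inflammatory and survival genes together with genes of its own subunits and inhibitors, which ends the signal again. MK2 is the kinase directly downstream of p38α, and both are known for acting on the stability and translation of cytokine mRNAs.

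Since several members are known to be switched on by NF-κB itself, their promoters were searched for the 10-base κB consensus, the DNA element that NF-κB dimers bind. RefSeq promoter windows of 300 bases (250 before the transcription start site and 50 after it, GRCh38.p14) were given for 8 of the 10 members, that is for all except *RELB* and *NFKBIE*. Both strands were searched for GGGRNNYYCC without mismatch, where R is A or G, Y is C or T and N is any base. A match was found for 6 of these 8 members, against 13.3% of 27305 genes with a window and 17.1% of 11142 such genes that are listed in the expression tables. Some genes have several windows, and by window 7 of 12 of the members had a match, against 11.3% of 35116. Along the gene, the windows of *NFKB2* held 0, 3 and 2 matches and those of *NFKB1* held 1 and 0. The windows of *RELA* and *ICAM1* held no match to this strict form, and looser forms of the element were not searched. For each of the 6 genes the match nearest to a start site is shown 5′ to 3′ on the strand of the gene, with the matching bases in capitals, and the farther match of *BIRC3* is shown as well. Positions refer to the printed bases, and *NFKBIA* lies on the minus strand.
*REL*, chr2:60881518-60881546: gtcagccgcGGGAAATTCCCctcccgcca
*NFKB1*, chr4:102501300-102501329: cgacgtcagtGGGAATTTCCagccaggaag
*TNFAIP3*, chr6:137867188-137867217: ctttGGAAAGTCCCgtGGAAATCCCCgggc
*NFKB2*, chr10:102395674-102395703: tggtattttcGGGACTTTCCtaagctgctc
*BIRC3*, chr11:102317275-102317304: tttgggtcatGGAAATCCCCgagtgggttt
*BIRC3*, chr11:102317339-102317368: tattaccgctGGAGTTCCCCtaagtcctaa
*NFKBIA*, chr14:35404811-35404840: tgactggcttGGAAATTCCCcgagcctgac

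In *TNFAIP3* the matches began 67 and 55 bases before the start site, and the second of them has the same 10 letters, GGAAATCCCC, as the match of *BIRC3* at 199 bases before its start. The letters GGAAATTCCC, at 81 bases before the start of *NFKBIA*, also occur in the capitals of *REL*, where 2 overlapping matches began 47 and 46 bases before the start. The match of *NFKB1* lay 49 bases before the start. The match shown for *NFKB2* lay 21 bases before the start site of the last of its windows along the gene. In GENCODE, the matches shown for *REL*, *TNFAIP3* and *NFKB2* overlap untranslated exons of other transcripts of the same gene. That of *NFKB1* overlaps an exon of the gene ENSG00000260651, and those of *NFKBIA* and *BIRC3* lie in no annotated exon. Another match of *NFKB2*, 176 bases before the same start site as the match shown, lies in no annotated exon either. A match is a likeness of letters in this window and no measure of binding.

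The deposited value of a gene in a library is the log2 of its normalized CPM, a read count scaled to a common library size. Whole read counts could be recovered from the values, and the listed genes held 22346073 to 28373993 reads per library in the first experiment and 20122017 to 37562668 in the second. Each member had at least 102 reads in every library, far above a floor of 3 reads, so that none of them was limited by detection. The experiments were normalized separately, and levels are therefore compared only within one of them. All 8 glial and glioma markers checked were listed, with *VIM* at group means of 11.16 to 12.44 in the second experiment but *GFAP* only at -0.34 to 0.98. Of the 8 immune markers 1 and 2 had a row in the tables of the respective experiments, with summed levels of 0.223 to 0.51 CPM and 1.09 to 3.87 CPM over groups, and of 4 endothelial markers none had one. A gene was called changed when its adjusted p-value from limma, a linear model fitted over all genes, was under 0.05 and its fold change at least 1.5.

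Compared to regular culture, ischemic culture raised the mRNA of 7 of the 10 members in both experiments, and the same 7 genes were called each time. They were the subunits *RELA*, *RELB* and *NFKB2*, the inhibitors *NFKBIA* and *TNFAIP3*, and both induced targets, *ICAM1* and *BIRC3*. *TNFAIP3* changed most, with a rise of 9.55-fold in untreated and 9.1-fold in DMSO-treated cells, whereas *NFKB1*, *REL* and *NFKBIE* were not called. Among all genes, 21.3% were called higher and 20.2% lower in untreated cells, and 18.1% were called higher and 17.9% lower in DMSO-treated cells. No member was called lower in either experiment, and by unadjusted p without the fold *NFKBIE* was lower in untreated cells and *REL* in DMSO-treated cells. By adjusted p without the fold, 8 members were higher in untreated cells, beside 35.2% of all genes. In DMSO-treated cells 8 members were higher and 1 was lower by that rule, beside 34.4% and 35.2% of all genes. In bulk libraries such as these, more RNA per cell and more cells that express a gene cannot be told apart.

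**Figure D1:**
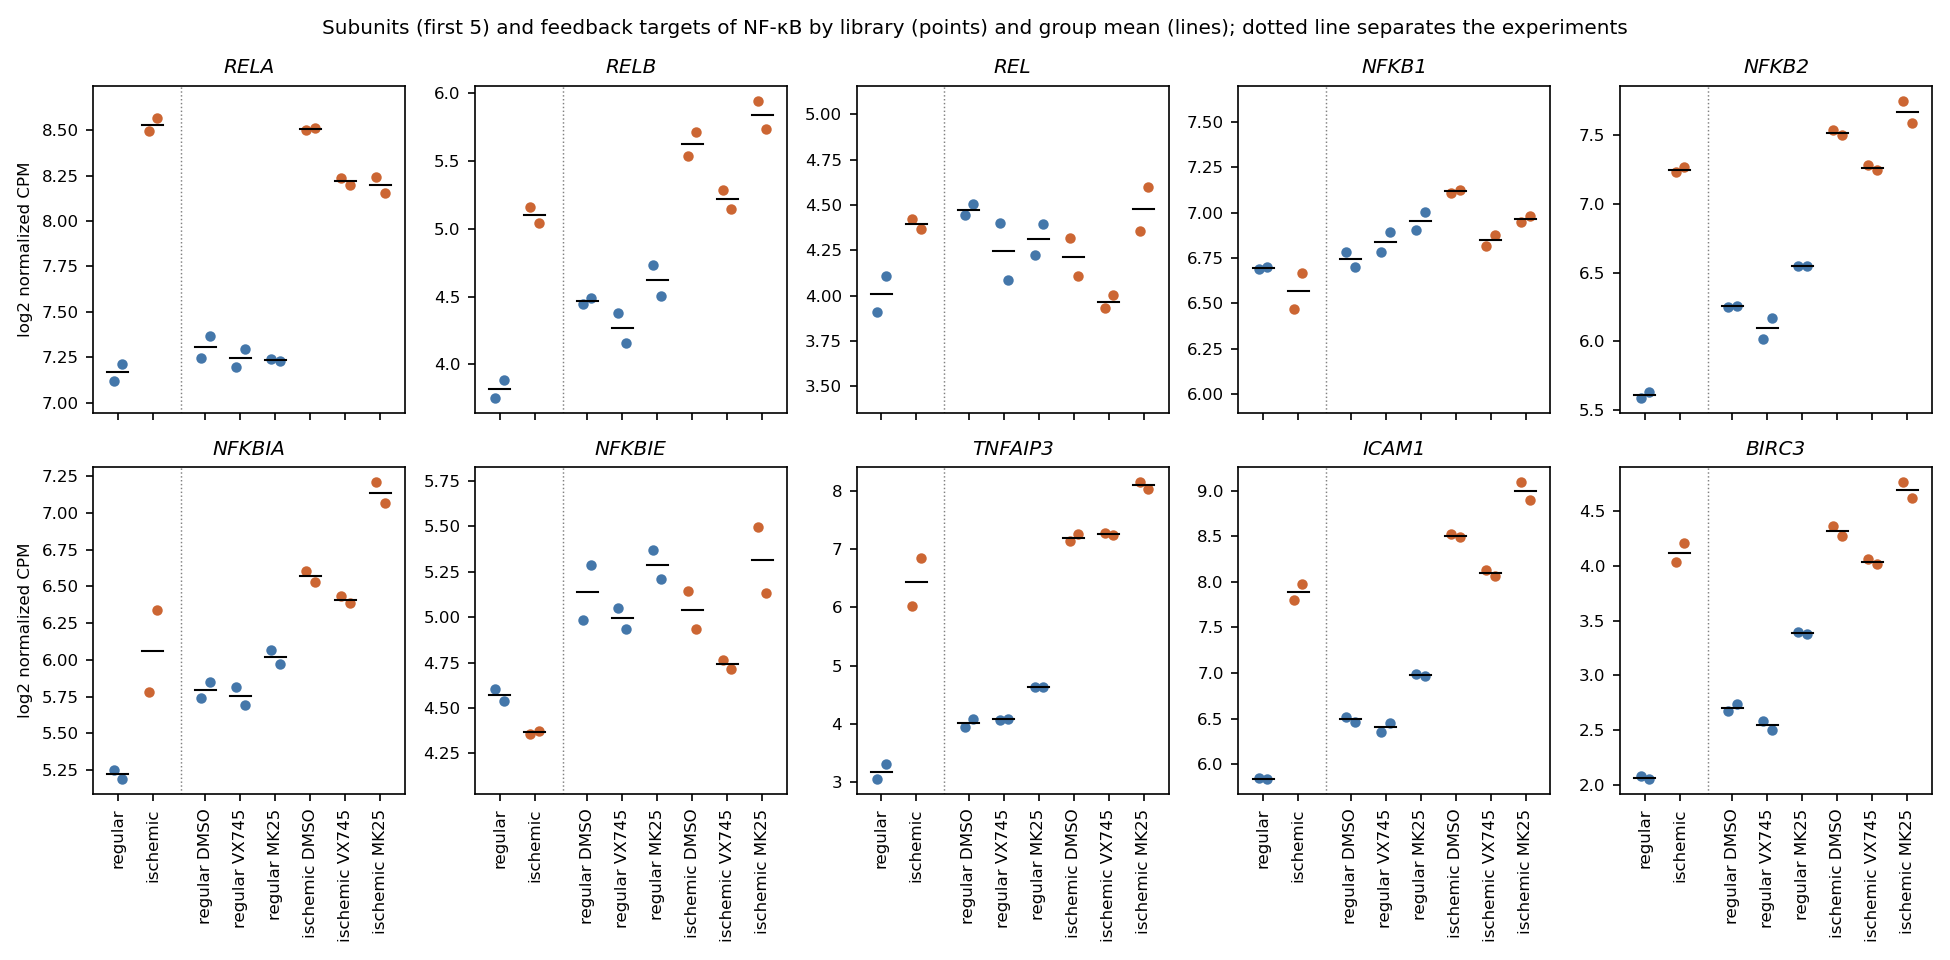
Level of each member in every library. The vertical axes give log2 normalized CPM, each with its own range, the points are single libraries (blue, regular culture; orange, ischemic culture), the short lines are group means, and the dotted line separates the 2 experiments. In the panels of *RELA*, *RELB*, *NFKB2*, *NFKBIA*, *TNFAIP3*, *ICAM1* and *BIRC3* all ischemic libraries lie above all regular libraries of the same experiment, in both experiments, which is not so for *REL*, *NFKB1* and *NFKBIE*.

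*RELA* (Entrez 5970, chr11:65653601-65663857, minus strand) encodes the subunit with the main transactivation domain of the canonical pathway. Its log2 levels in untreated cells were 7.12 and 7.21 in regular and 8.49 and 8.57 in ischemic culture. The difference was 1.36 ± 0.068 (log2 fold change ± SE, adjusted p = 3.91e-09), and with DMSO it was 1.20 ± 0.057 (adjusted p = 4.49e-12). In the second experiment the levels in regular culture were 7.24 and 7.37 with DMSO, 7.20 and 7.29 with VX745 and 7.24 and 7.23 with MK25. In ischemic culture they were 8.50 and 8.51 with DMSO, 8.24 and 8.20 with VX745 and 8.24 and 8.15 with MK25. In ischemic culture the libraries with either inhibitor lay below those with DMSO and above every regular library. In regular culture the VX745 libraries overlapped those with DMSO, and both MK25 libraries lay just below both DMSO libraries. Of the exon bases of *RELA* 1.89% overlap *RELA-DT* on the opposite strand.

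*RELB* (Entrez 5971, chr19:45001464-45038192, plus strand) and *NFKB2* (Entrez 4791, chr10:102394110-102402529, plus strand) encode the partners of the noncanonical dimer, in which the product of *NFKB2* is processed from a longer precursor. For *RELB*, the levels were 3.75 and 3.89 in regular and 5.16 and 5.04 in ischemic culture, a difference of 1.28 ± 0.098 (adjusted p = 2.01e-07). *NFKB2* had levels of 5.59 and 5.63 in regular and 7.23 and 7.27 in ischemic culture, and its difference of 1.64 ± 0.069 (adjusted p = 9.16e-10) was the largest among the subunits. Both genes rose again with DMSO, *RELB* by 1.16 ± 0.099 (adjusted p = 1.21e-08) and *NFKB2* by 1.27 ± 0.063 (adjusted p = 9.73e-12). *RELB* and *NFKB2* thus rose in both experiments, with no overlap between regular and ischemic libraries. Over the treatments, *RELB* was at 4.44 and 4.49 with DMSO, 4.38 and 4.16 with VX745 and 4.73 and 4.51 with MK25 in regular culture. It was at 5.54 and 5.71 with DMSO, 5.29 and 5.15 with VX745 and 5.94 and 5.74 with MK25 in ischemic culture. Its lowest libraries were those of regular culture with VX745 and its highest those of ischemic culture with MK25. For *NFKB2* the regular libraries gave 6.25 and 6.26 with DMSO, 6.02 and 6.17 with VX745 and 6.55 and 6.55 with MK25. Ischemic ones gave 7.54 and 7.50 with DMSO, 7.29 and 7.25 with VX745 and 7.75 and 7.59 with MK25. For both genes and in both cultures the MK25 libraries were the highest, the VX745 libraries the lowest and the DMSO libraries between them, without overlap. By adjusted p from limma, only VX745 in ischemic culture (both genes) and MK25 in regular culture (*NFKB2*) passed against DMSO. For *RELB* in regular culture neither inhibitor passed (VX745 -0.20, adjusted p = 0.365, and MK25 0.15, adjusted p = 0.336). How many of all genes share this order was not counted.

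*REL* (Entrez 5966, chr2:60881574-60931612, plus strand) encodes c-Rel, a subunit best known from lymphocytes, and *NFKB1* (Entrez 4790, chr4:102501359-102617302, plus strand) encodes the precursor of the usual partner of the *RELA* protein. Neither was called under ischemia, and for both the sign of the difference was opposite in the 2 experiments. *REL* was at 3.91 and 4.11 in regular and 4.42 and 4.37 in ischemic culture of untreated cells, a difference of 0.38 ± 0.11 (adjusted p = 0.00604). With DMSO it was at 4.44 and 4.50 in regular and 4.32 and 4.11 in ischemic culture, a difference of -0.26 ± 0.11 (adjusted p = 0.0456). The untreated difference of *REL* kept an adjusted p under 0.05 in 9 of 10 alternative settings and the difference with DMSO in 6 of 11. The first had an adjusted p of 0.088 without regular replicate 1. The second had one of 0.0789, 0.161 or 0.313 without regular DMSO replicate 1, regular DMSO replicate 2 or ischemic DMSO replicate 2, one of 0.101 without a variance trend and one of 0.0505 with the replicate number as a block. For *NFKB1* the untreated levels were 6.69 and 6.70 in regular and 6.47 and 6.67 in ischemic culture, which did not pass the test (-0.13 ± 0.078, adjusted p = 0.162). That value depended on the ischemic libraries, with -0.028 without ischemic replicate 1 and -0.23 (adjusted p = 0.0221) without ischemic replicate 2, and it was -0.19 (adjusted p = 0.0347) with quantile normalization. Its levels with DMSO were 6.78 and 6.70 in regular and 7.11 and 7.13 in ischemic culture, a difference of 0.37 ± 0.059 (adjusted p = 2.03e-05) that stayed under the fold of 1.5. The difference between the experiments was not tested. A share of 33.29% of the exon bases of *REL* also belongs to another gene on the same strand, ENSG00000267520, and reads on these bases could be counted for either.

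*NFKBIA* (Entrez 4792, chr14:35401513-35404749, minus strand) encodes IκBα, the inhibitor that NF-κB itself restores after a stimulus. Its levels were 5.25 and 5.19 in regular and 5.78 and 6.34 in ischemic culture of untreated cells. The ischemic libraries lay apart from each other but both were above both regular libraries, and the difference was 0.84 ± 0.14 (adjusted p = 0.000135). Without ischemic replicate 2 it was 0.56, under the fold of 1.5. With DMSO the difference was 0.77 ± 0.068 (adjusted p = 1.72e-08), and this call held without any 1 library. The gene was at 5.74 and 5.85 with DMSO, 5.81 and 5.69 with VX745 and 6.06 and 5.97 with MK25 in regular culture and at 6.61 and 6.53 with DMSO, 6.43 and 6.39 with VX745 and 7.21 and 7.06 with MK25 in ischemic culture. Libraries of ischemic culture with MK25 were the highest of that experiment, and every ischemic library lay above every regular one.

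*NFKBIE* (Entrez 4794, chr6:44258166-44265551, minus strand) encodes IκBε, another inhibitor of the same family. It was at 4.60 and 4.54 in regular and 4.36 and 4.37 in ischemic culture (-0.21 ± 0.092, adjusted p = 0.0628), and the adjusted p was 0.03 with median centring and 0.0321 with quantile normalization. With DMSO the difference was -0.099 ± 0.11 (adjusted p = 0.449). Its levels over the treatments were 4.99 and 5.29 with DMSO, 5.05 and 4.94 with VX745 and 5.37 and 5.21 with MK25 in regular culture. They were 5.14 and 4.93 with DMSO, 4.76 and 4.72 with VX745 and 5.50 and 5.13 with MK25 in ischemic culture, so that the cultures overlapped in the second experiment, and replicates of regular DMSO and of ischemic MK25 lay farther apart than the means of the cultures with DMSO.

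*TNFAIP3* (Entrez 7128, chr6:137866349-137883312, plus strand) encodes a ubiquitin-editing enzyme that shuts off signaling upstream of the IκB kinases. It was at 3.05 and 3.31 in regular and 6.03 and 6.84 in ischemic culture of untreated cells. The difference of 3.25 ± 0.19 (adjusted p = 2.09e-08) far exceeded the gap between the ischemic replicates. With DMSO, the corresponding difference was 3.19 ± 0.066 (adjusted p = 4.66e-17). In the second experiment, regular libraries were at 3.95 and 4.09 with DMSO, 4.07 and 4.08 with VX745 and 4.64 and 4.63 with MK25. Ischemic libraries were at 7.15 and 7.26 with DMSO, 7.28 and 7.25 with VX745 and 8.16 and 8.04 with MK25. MK25 libraries were the highest in both cultures, whereas the means of VX745 and DMSO differed by less than the gap between the DMSO replicates. Of its exon bases 1.47% overlap *WAKMAR2* on the opposite strand, which is listed too.

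*ICAM1* (Entrez 3383, chr19:10271120-10286615, plus strand), a surface adhesion molecule for leukocytes, and *BIRC3* (Entrez 330, chr11:102317484-102339403, plus strand), a ubiquitin ligase that protects cells from death downstream of TNF receptors, are classical targets of NF-κB. For *ICAM1* the untreated levels were 5.85 and 5.84 in regular and 7.80 and 7.98 in ischemic culture, 4.13-fold higher (2.05 ± 0.075, adjusted p = 2.89e-10). *BIRC3* was at 2.08 and 2.05 in regular and 4.04 and 4.21 in ischemic culture, 4.16-fold higher (2.06 ± 0.13, adjusted p = 3.63e-08). With DMSO the rise was 2.01 ± 0.063 for *ICAM1* (adjusted p = 1.69e-14) and 1.62 ± 0.095 for *BIRC3* (adjusted p = 8.93e-11). Both targets thus had larger log2 fold changes than any subunit in both experiments, a difference between genes that was not tested. *ICAM1* was at 6.52 and 6.47 with DMSO, 6.36 and 6.45 with VX745 and 6.99 and 6.97 with MK25 in regular culture. In ischemic culture *ICAM1* was at 8.52 and 8.49 with DMSO, 8.13 and 8.06 with VX745 and 9.10 and 8.89 with MK25. In each culture *ICAM1* was highest with MK25. Levels of *BIRC3* were 2.67 and 2.74 with DMSO, 2.58 and 2.50 with VX745 and 3.40 and 3.38 with MK25 in regular culture. They were 4.37 and 4.27 with DMSO, 4.06 and 4.01 with VX745 and 4.77 and 4.62 with MK25 in ischemic culture, and for both targets the order in ischemic culture was MK25, DMSO, VX745 without overlap. How many of all genes share this order was not counted. A share of 23.64% of the exon bases of *ICAM1* overlaps *ICAM4-AS1* on the opposite strand, and since counting by strand is not stated, reads from the 2 genes cannot be told apart there.

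Over the second experiment, all 6 ischemic libraries lay above all 6 regular libraries for the 7 members called under ischemia and for none of the other 3, whatever the treatment. By the same rule 25.8% of all 14024 genes were higher in ischemic culture.

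**Figure D2:**
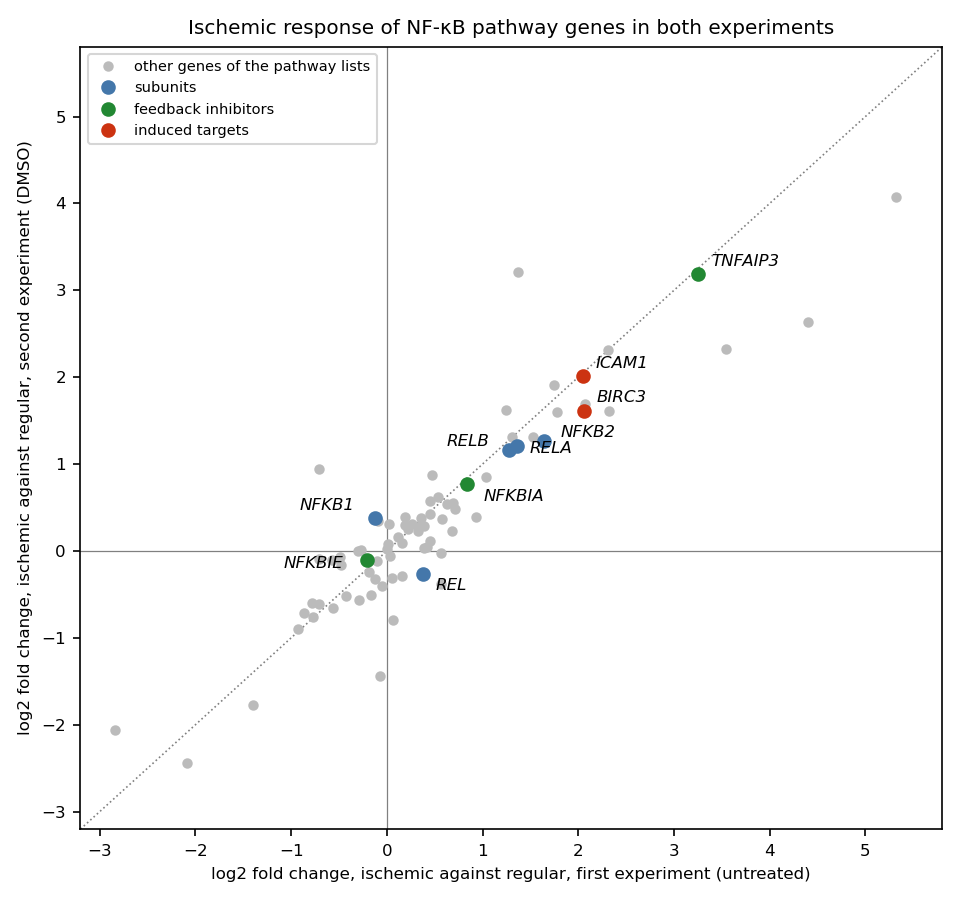
Log2 fold change of ischemic against regular culture in untreated cells (horizontal) and in DMSO-treated cells (vertical) for the members (colored and named) and for the other genes of the pathway lists (grey); the dotted line marks equal changes. *TNFAIP3* lies at 3.25 and 3.19, the 7 called members lie in the upper right quadrant, and *REL* and *NFKB1* lie in quadrants of opposite sign.

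Between genes, levels can be compared only per length, here as CPM per kilobase of annotated exon. This CPM is the recovered reads of a gene relative to all reads on listed genes of the library. It lacks the normalization of the deposited values. The values therefore rank genes within a group, and fold changes between groups are to be read from limma only. In regular culture with DMSO the order was *RELA* (30.4 ± 2.19, mean ± SD), *ICAM1* (27.4 ± 0.401), *NFKBIA* (17.2 ± 1.09), *NFKBIE* (14.4 ± 2.27), *NFKB2* (14.3 ± 0.216), *RELB* (7.72 ± 0.276), *NFKB1* (7.16 ± 0.205), *TNFAIP3* (2.63 ± 0.212), *REL* (1.36 ± 0.057) and *BIRC3* (0.904 ± 0.041). *NFKBIE* and *NFKB2* did not differ beyond their spread. With ischemia and DMSO the order by the same measure was *ICAM1* (94.7 ± 2.21), *RELA* (59.9 ± 0.032), *NFKB2* (29.5 ± 0.705), *NFKBIA* (25.1 ± 1.09), *TNFAIP3* (20.5 ± 0.98), *RELB* (14.8 ± 1.19), *NFKBIE* (11.4 ± 1.24), *NFKB1* (7.95 ± 0.022), *BIRC3* (2.39 ± 0.127) and *REL* (0.972 ± 0.105). *ICAM1* thus passed *RELA*, and *TNFAIP3* moved from rank 8 to rank 5. In ischemic culture with MK25, *TNFAIP3* (41.9 ± 2.28) and *NFKBIA* (40.8 ± 2.81) overlapped on ranks 3 and 4, below *ICAM1* (145.9 ± 14.0) and *RELA* (52.9 ± 2.06). Exons of all annotated transcripts were merged for the length, which lowers the values of genes with long or many transcripts, such as *REL* with 17.129 kb and *NFKB1* with 15.679 kb.

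With VX745 in regular culture no member was called against DMSO by limma, on the deposited values or with voom on the recovered reads, and 1 of 10 members had an unadjusted p under 0.05, namely *NFKB2* (-0.16 ± 0.063, adjusted p = 0.247). The log2 fold changes ran from -0.23 for *REL* to 0.096 for *NFKB1*. Among all genes, 0.0642% were called higher and 0.0357% lower in this comparison, and the share with an unadjusted p under 0.05 was not counted.

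In ischemic culture, VX745 libraries lay below DMSO libraries for most members by less than the fold of 1.5. No member was called by limma, on the deposited values or with voom, while 4.35% of all genes were called higher and 0.906% lower. The unadjusted p was under 0.05 for 9 members, and the share of all genes by that rule was not counted. By adjusted p without the fold 6 members were lower, beside 14.9% of all genes. The largest differences were those of the target *ICAM1* (-0.41 ± 0.063, adjusted p = 0.000173) and of *RELB* (-0.41 ± 0.099, adjusted p = 0.00522). Those of *RELA* (-0.29 ± 0.057, adjusted p = 0.00127), *BIRC3* (-0.28 ± 0.095, adjusted p = 0.0327), *NFKB1* (-0.27 ± 0.059, adjusted p = 0.00253) and *NFKB2* (-0.25 ± 0.063, adjusted p = 0.00657) were smaller. The feedback inhibitors did not pass, with *NFKBIE* at -0.30 ± 0.11 (adjusted p = 0.0579), *NFKBIA* at -0.16 ± 0.068 (adjusted p = 0.0887) and *TNFAIP3* at 0.061 ± 0.066 (adjusted p = 0.522). *NFKBIE* passed in 4 of 11 alternatives, in a fit of only the groups compared (0.0139), without ischemic DMSO replicate 2 (0.0444), with median centring (0.0461) and with replicates as a block (0.0469), and *NFKBIA* did so in the first of these fits (0.0209). *TNFAIP3* was the only member whose mean was not below that of DMSO. Under every alternative setting run, *ICAM1* and *NFKB1* kept an adjusted p under 0.05. *RELB* lost it without ischemic DMSO replicate 2 (0.0671) or ischemic VX745 replicate 2 (0.0708). *NFKB2* lost it without ischemic DMSO replicate 1 (0.0571) or ischemic VX745 replicate 2 (0.0647), and *BIRC3* lost it without any 1 of the 4 libraries (0.062 to 0.197). With quantile normalization *NFKB2* (0.0888) and *RELA* (0.0534) lost it as well.

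**Figure D3:**
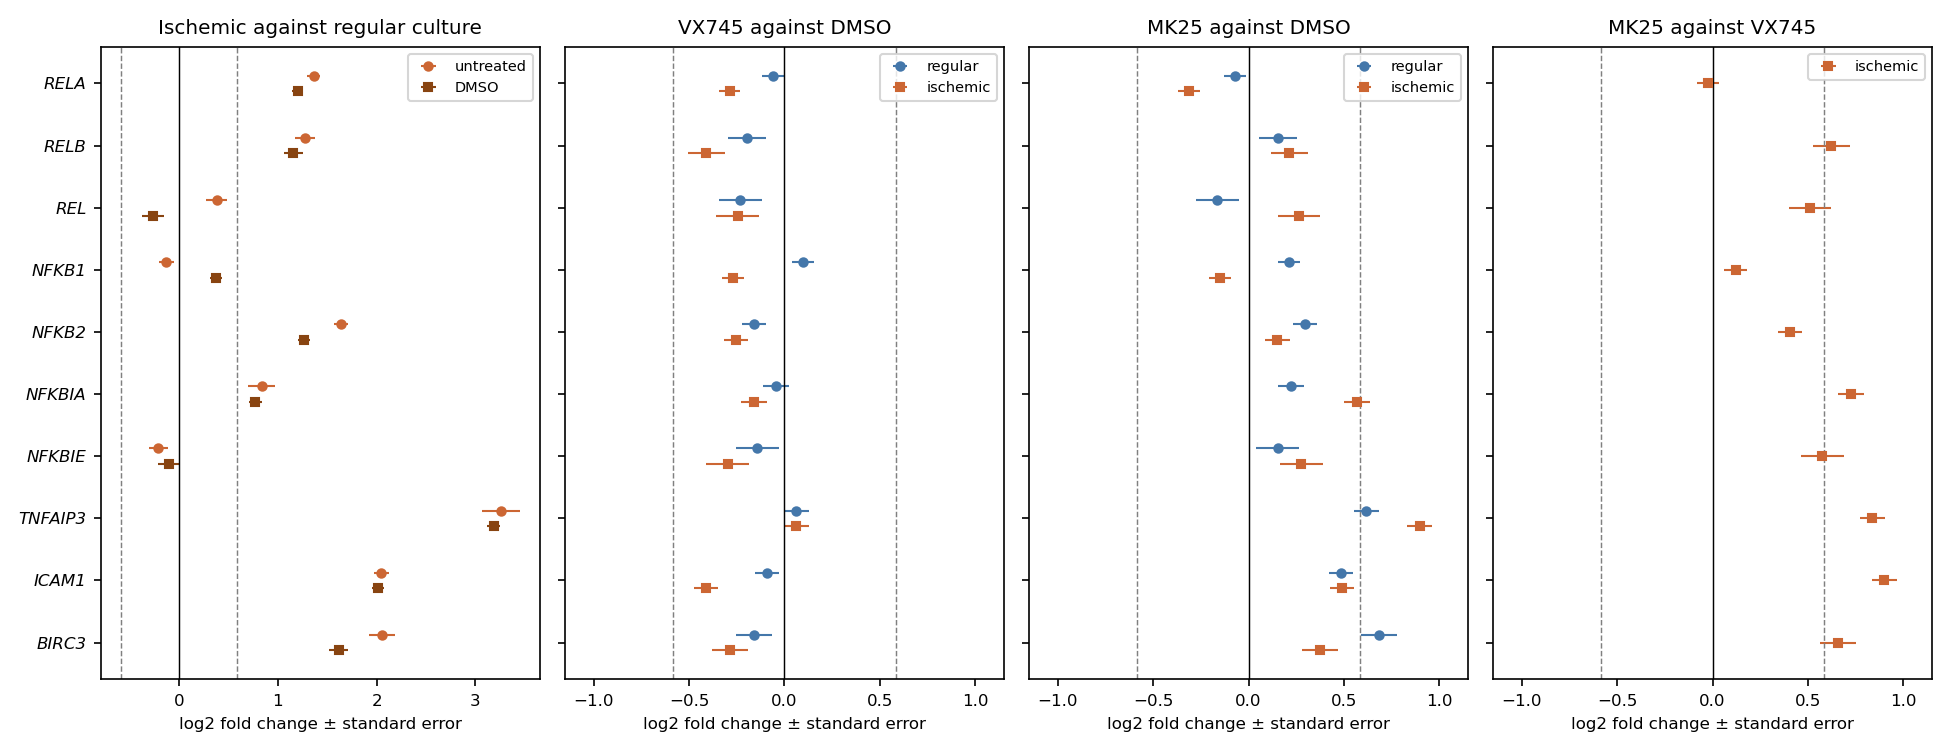
Log2 fold changes of the members with their standard errors from limma in 4 contrasts. Horizontal axes give the log2 fold change (the first panel has a wider range), dashed lines mark a fold of 1.5 in either direction, and colors and shapes give the culture or treatment named in each legend. Inhibitor effects against DMSO lie between -0.41 (*ICAM1*, VX745 in ischemic culture) and 0.90 (*TNFAIP3*, MK25 in ischemic culture).

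MK25 raised *TNFAIP3* and *BIRC3* in regular culture. *TNFAIP3* rose by 0.62 ± 0.066 (1.53-fold, adjusted p = 6.1e-06) and *BIRC3* by 0.68 ± 0.095 (1.6-fold, adjusted p = 0.000123). These were 2 of 10 members, while 1.88% of all genes were called higher and 0.606% lower. The rise of *TNFAIP3* was just past the fold and came to 0.55 without regular DMSO replicate 1. By adjusted p without the fold 6 members were higher, beside 7.0% of all genes. Besides the 2 called genes they were *ICAM1* (0.48 ± 0.063, adjusted p = 6.15e-05), *NFKB2* (0.29 ± 0.063, adjusted p = 0.00538), *NFKBIA* (0.22 ± 0.068, adjusted p = 0.0411) and *NFKB1* (0.21 ± 0.059, adjusted p = 0.0254). The adjusted p of *NFKBIA* stayed under 0.05 in only 5 of 11 alternatives and that of *NFKB1* in 7 of 11, with values of 0.0583 to 0.222 for *NFKBIA* without regular DMSO replicate 1 or 2 or regular MK25 replicate 1 and of 0.171 and 0.153 for *NFKB1* without regular DMSO replicate 2 or regular MK25 replicate 2. The values of *RELA* (-0.07), *RELB* (0.15), *REL* (-0.16) and *NFKBIE* (0.15) did not pass.

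In ischemic culture MK25 raised *TNFAIP3* further, by 0.90 ± 0.066 (1.86-fold, adjusted p = 2.9e-08). It was the 1 member called, while 7.02% of all genes were called higher and 2.65% lower. By adjusted p without the fold 4 members were higher and 2 lower, beside 19.8% and 22.0% of all genes. The higher ones besides *TNFAIP3* were *NFKBIA* (0.57 ± 0.068, adjusted p = 5.72e-06), *ICAM1* (0.49 ± 0.063, adjusted p = 1.32e-05) and *BIRC3* (0.38 ± 0.095, adjusted p = 0.00448). The lower ones were the subunits *RELA* (-0.31 ± 0.057, adjusted p = 0.00034) and *NFKB1* (-0.15 ± 0.059, adjusted p = 0.0486). *RELB* (0.21), *REL* (0.27), *NFKB2* (0.15) and *NFKBIE* (0.28) had adjusted p-values of 0.0924, 0.0658, 0.0636 and 0.0589. Of these, *NFKB2* passed without ischemic MK25 replicate 2 (0.0208), *REL* without ischemic DMSO replicate 1 (0.044) or ischemic MK25 replicate 1 (0.0359), and *NFKBIE* without ischemic DMSO replicate 1 (0.0404) or ischemic MK25 replicate 2 (0.00872) and with replicate number as a block (0.0474). *NFKBIA* passed the fold as well without ischemic DMSO replicate 1 (0.61) or ischemic MK25 replicate 2 (0.64), and *ICAM1* did so without the latter (0.59). The difference of *NFKB1* lost its adjusted p without any 1 of the 4 libraries (0.0942 to 0.185), and that of *BIRC3* without ischemic MK25 replicate 1 (0.067). With quantile normalization neither lower subunit passed, *RELA* at -0.14 (adjusted p = 0.0582) and *NFKB1* at -0.060 (adjusted p = 0.455), and the subunit *NFKB2* passed as higher at 0.27 (adjusted p = 0.00318).

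The 2 inhibitors share their DMSO libraries, so they were also compared with each other in ischemic culture. The labels give no doses, and the compound list in the study's methods gives MK25 a higher concentration than VX745, so that compound and concentration cannot be told apart. MK25 libraries were above VX745 libraries by the call rule in 5 of 10 members, while 1.75% of all genes were called higher and 2.2% lower. These were *ICAM1* (0.90 ± 0.063, adjusted p = 2e-08), *TNFAIP3* (0.84 ± 0.066, adjusted p = 7.46e-08), *NFKBIA* (0.73 ± 0.068, adjusted p = 6.31e-07), *BIRC3* (0.66 ± 0.095, adjusted p = 8.32e-05) and *RELB* (0.62 ± 0.099, adjusted p = 0.000214). Both induced targets, 2 of 3 feedback inhibitors and 1 of 5 subunits were thus higher with MK25. By adjusted p without the fold 8 members were higher, beside 8.22% of all genes, with *NFKBIE* (0.57 ± 0.11, adjusted p = 0.00153), *REL* (0.51 ± 0.11, adjusted p = 0.00355) and *NFKB2* (0.40 ± 0.063, adjusted p = 0.000187) in addition. *RELA* (-0.023 ± 0.057, adjusted p = 0.831) and *NFKB1* (0.12 ± 0.059, adjusted p = 0.177) did not pass. *RELB* was under the fold without ischemic VX745 replicate 2 (0.55) or ischemic MK25 replicate 1 (0.52). *NFKBIE* passed it without ischemic VX745 replicate 1 (0.60) or ischemic MK25 replicate 2 (0.76) and *REL* without ischemic MK25 replicate 1 (0.63), while *REL* lost its adjusted p without ischemic MK25 replicate 2 (0.0684).

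Whether an inhibitor acted differently in the 2 cultures was tested as an interaction, the effect in ischemic culture minus that in regular culture, read by adjusted p alone. For VX745 it was below 0 for *NFKB1* (-0.37 ± 0.083, adjusted p = 0.00974) and *ICAM1* (-0.32 ± 0.089, adjusted p = 0.0276), that is for 2 of 10 members beside 6.0% of all genes. The effects of VX745 in ischemic and regular culture were -0.27 and 0.096 for *NFKB1* and -0.41 and -0.089 for *ICAM1*. *RELA* passed without regular DMSO replicate 2 (-0.29, adjusted p = 0.0449). The interaction of MK25 was above 0 for the inhibitors *NFKBIA* (0.35 ± 0.096, adjusted p = 0.0138) and *TNFAIP3* (0.28 ± 0.093, adjusted p = 0.0355), beside 10.5% of all genes. It was below 0 for the subunits *NFKB1* (-0.36 ± 0.083, adjusted p = 0.00437) and *RELA* (-0.24 ± 0.08, adjusted p = 0.0365), beside 13.9%. With quantile normalization that of *RELA* was -0.084 (adjusted p = 0.484). The largest value was that of the subunit *REL*, 0.43 ± 0.16, which did not pass (adjusted p = 0.0571) but had an adjusted p of 0.0337 to 0.0414 without regular MK25 replicate 2, ischemic DMSO replicate 1 or ischemic MK25 replicate 1. For *ICAM1* the effects of MK25 were 0.48 in regular and 0.49 in ischemic culture, with an interaction of 0.0055 ± 0.089 (adjusted p = 0.973). *BIRC3* had values of 0.68 and 0.38, and its interaction of -0.31 ± 0.13 did not pass (adjusted p = 0.107). *NFKB1* was the only member whose interaction with MK25 kept an adjusted p under 0.05 in all 15 alternatives, and none did so for VX745, where *NFKB1* kept it in 13 of 15.

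Around the members, the other genes of the pathway were read in 4 lists, which were written with earlier results of these data known. Among the 14 other brakes of the pathway, 4 were called higher and 1 lower in untreated ischemic cells, and 2 higher and 1 lower with DMSO, with medians of 0.276 and 0.065 on the log2 scale beside -0.009 and -0.007 over all genes. Of all genes, 21.3% were called higher and 20.2% lower in untreated ischemic cells, and 18.1% and 17.9% with DMSO. *TNIP1*, which binds the *TNFAIP3* protein and helps it to end the signal, rose by 2.31 ± 0.066 (adjusted p = 3.02e-11) in untreated cells and by 2.31 ± 0.061 (adjusted p = 1.58e-15) with DMSO. *TAX1BP1*, another partner of *TNFAIP3*, rose by 1.04 and 0.85 in the same order. *NFKBIZ*, an atypical nuclear member of the IκB family, fell by 0.93 and 0.90, and it fell by 0.71 with VX745 in ischemic culture. Whether *NFKBIZ* acts as a brake in these cells was not tested. Of the 14 brakes none was called with MK25 in either culture. Of all genes, 1.88% were called higher and 0.606% lower with MK25 in regular culture, and 7.02% and 2.65% in ischemic culture.

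Of the 25 upstream kinases and adaptors, 2 were called higher and 4 lower under ischemia in each experiment, with medians of 0.159 and -0.002. The shares of all genes were 21.3% higher and 20.2% lower in untreated cells, and 18.1% and 17.9% with DMSO. *RBCK1*, a subunit of the linear ubiquitin ligase, rose by 1.31 in both experiments, whereas *CHUK*, the gene of the IκB kinase α, fell by 0.77 and 0.76. In untreated cells *MAP3K8*, a kinase upstream of the ERK pathway, rose by 0.94 and the adaptor gene *MYD88* fell by 0.79, and with DMSO the adaptor gene *TRAF5* rose by 0.62 and the kinase gene *RIPK1* fell by 0.66. None of the 25 was called with VX745 in either culture or with MK25 in regular culture, and in ischemic culture MK25 raised *MAP3K8* by 1.01 ± 0.20 (adjusted p = 0.000695). Of all genes, 7.02% were called higher and 2.65% lower with MK25 in ischemic culture, and 1.88% and 0.606% in regular culture. With VX745 the shares were 4.35% and 0.906% in ischemic and 0.0642% and 0.0357% in regular culture.

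Of 13 receptors 10 were listed, of which 2 were called higher and 2 lower in untreated ischemic cells and 2 higher and 3 lower with DMSO, with medians of 0.115 and -0.017. The shares of all genes were 21.3% higher and 20.2% lower in untreated cells, and 18.1% and 17.9% with DMSO. *IL1RAP*, the accessory chain of the interleukin 1 receptor, rose by 2.32 and 1.61 in ischemic culture, untreated and with DMSO, and *TNFRSF10B*, a death receptor, by 1.52 and 1.31. *TNFRSF21* fell by 2.84 and 2.05, and *TLR4*, the receptor of bacterial endotoxin, by 1.40 and 1.77. With MK25 in ischemic culture 3 receptors were lower and none higher, among them *TNFRSF12A* with -0.92 ± 0.087 (adjusted p = 4.4e-07) and *IL1R1* with -0.70 ± 0.11 (adjusted p = 6.66e-05). Of all genes, 2.65% were called lower and 7.02% higher in that comparison. VX745 had no called receptor in either culture. Of all genes, 0.0642% were called higher and 0.0357% lower with VX745 in regular culture, and 4.35% and 0.906% in ischemic culture.

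Of 25 other known targets of NF-κB 21 were listed, with 10 called higher and 3 lower under ischemia in each experiment and medians of 0.477 and 0.537. The called genes were not all the same, and *BCL2A1* was called lower in untreated cells (-0.71) and higher with DMSO (0.95). The shares of all genes were 21.3% higher and 20.2% lower in untreated cells, and 18.1% and 17.9% with DMSO. *PTGS2*, the inducible cyclooxygenase, rose by 5.32 and 4.08. *CXCL8*, the neutrophil chemokine, rose by 4.40 in untreated cells and by 2.64 with DMSO. *CSF2*, a growth factor gene of myeloid cells, rose by 3.21 with DMSO and by 1.37 in untreated cells, where it had at most 10 reads per library. In contrast, the monocyte chemokine *CCL2* fell by 2.09 in untreated cells and by 2.44 with DMSO. *TNFAIP2* fell by 0.87 in untreated cells and by 0.72 with DMSO. The chemokine gene *CXCL1* fell by 1.44 with DMSO and was not called in untreated cells (-0.070). In regular culture VX745 lowered 2 of these targets, *IL1A* by 0.74 and *CXCL8* by 0.65, and MK25 lowered *IL1A* by 0.73 and *IL1B* by 0.64 and raised *CXCL8* by 0.63. The shares of all genes there were 0.0357% lower with VX745, and 0.606% lower and 1.88% higher with MK25. With VX745 in ischemic culture 2 targets rose and 6 fell, and with MK25 2 rose and 7 fell. Of all genes, 4.35% were called higher and 0.906% lower with VX745, and 7.02% and 2.65% with MK25. *CXCL8* fell by 1.39 ± 0.083 with VX745 (adjusted p = 1.41e-08) and by 1.23 ± 0.083 with MK25 (adjusted p = 9.38e-09). *CSF2* fell by 1.11 with VX745, and *CCL20*, another chemokine, fell by 1.21 with MK25. *GADD45B*, a stress-response gene, rose by 0.92 with VX745 and by 0.99 with MK25. *BCL2A1*, a survival gene, rose by 0.95 with VX745, and *CCL2* rose by 0.95 with MK25. In ischemic culture the median of this list was -0.218 with VX745, beside -0.27 for the subunits, -0.158 for the feedback inhibitors, -0.348 for *ICAM1* and *BIRC3* and 0.003 over all genes. With MK25 it was -0.206, beside 0.152 for the subunits, 0.568 for the feedback inhibitors, 0.432 for *ICAM1* and *BIRC3* and -0.001 over all genes.

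**Figure D4:**
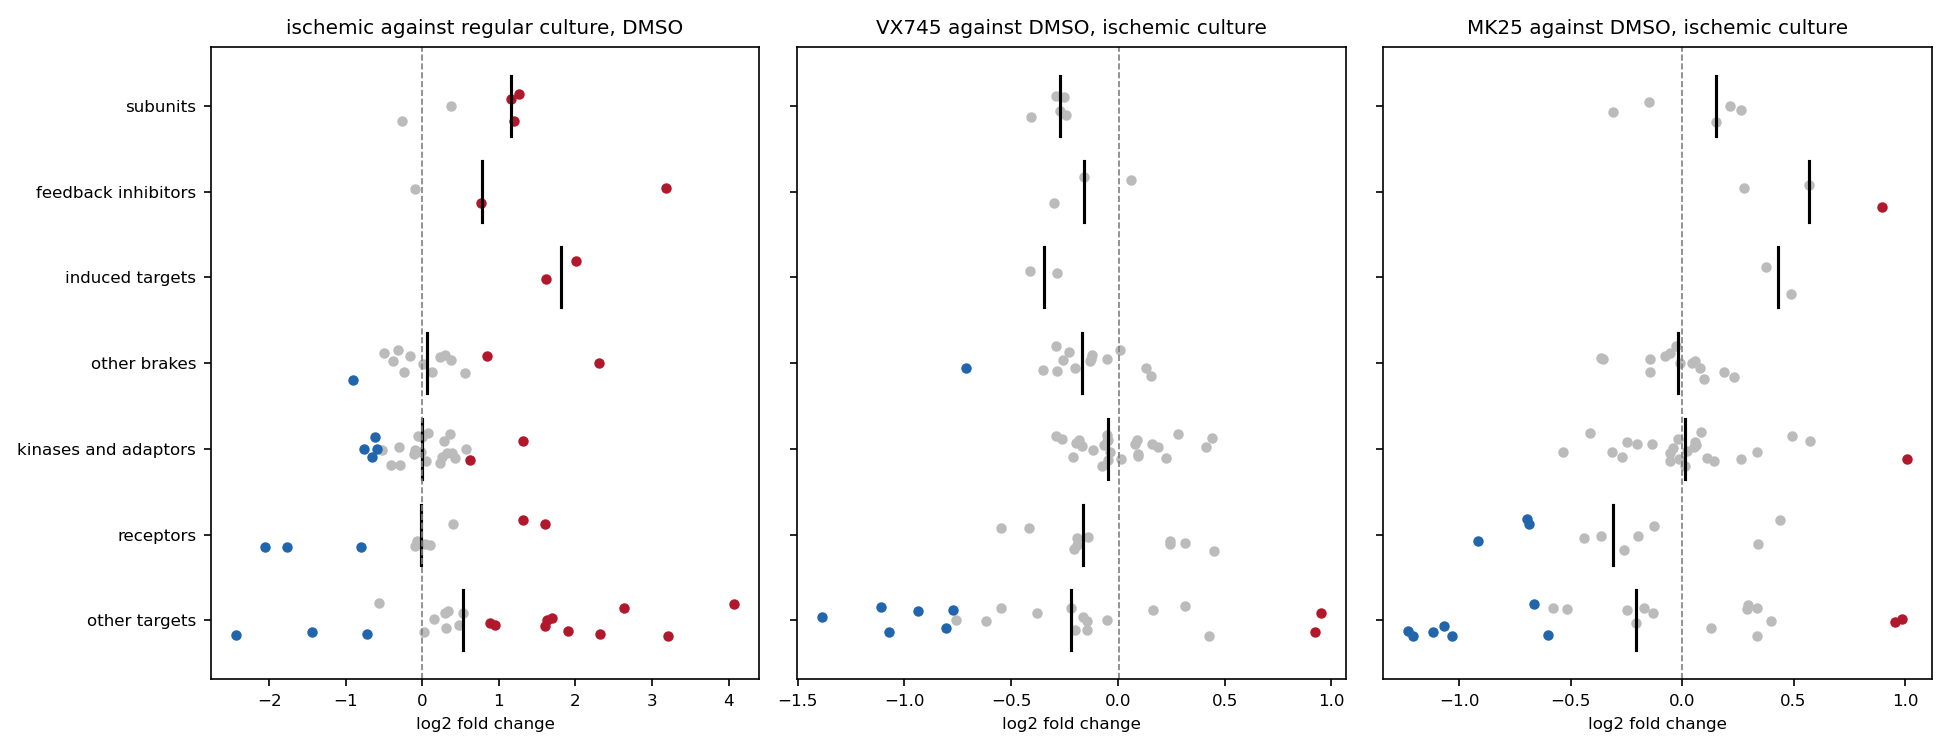
Log2 fold changes of the members (upper 3 rows) and of the other lists of the NF-κB pathway in ischemic against regular culture with DMSO, and with VX745 and MK25 against DMSO in ischemic culture; each panel has its own range. Each point is a gene, red if called higher, blue if called lower and grey if neither; black bars are list medians and the dashed line is the median of all genes. With MK25 the only called member is *TNFAIP3*, while 7 of the 21 other targets are called lower and 2 higher, beside 2.65% and 7.02% of all genes.

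For the 3 feedback inhibitors, the genes with the most similar pattern over the 12 libraries of the second experiment were sought among 10052 genes with a mean log2 level of at least 3. As a description, *TNFAIP3* was closest to *NRN1* (Pearson r = 0.998), *INHA* (0.997) and *KIAA2013* (0.997), and *NFKBIA* to *PIM2* (0.987), *VAT1* (0.984) and *ZFYVE1* (0.983). *NFKBIE* was closest to *SAT2* (0.873), *SGF29* (0.862) and *CXCL3* (0.849). The libraries share their culture and treatment groups, so the points behind these correlations are not independent.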

How the data were processed

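RNA was prepared by the authors with the SMART-Seq mRNA HT and Nextera XT kits. Per the submitters' processing notes and the study's methods, reads were aligned to GRCh38 with HISAT2, counted and normalized with edgeR, and the authors deposited log2 normalized CPM. Other versions are not given in the sources used here. Symbols matched 99.4% and 99.3% of the Entrez identifiers. The log2 values were used as deposited. Undoing the logarithm and a prior offset gave whole reads for 100% of the values (tolerance 0.001 reads, growing in proportion for high counts). They were used for levels per length, for depth and for floors, which cover counting error only. Replicates differed beyond sampling noise (chi-square per gene of 3.29 to 9.34).

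Fold changes, standard errors and two-sided p-values came from limma 3.58.1 in R 4.3.3, with 1 mean per group, a variance trend and Benjamini-Hochberg adjustment over all genes, in 9 comparisons. Experiment 2 was fitted with all 12 libraries. The test of the study takes counts. It was not run on the recovered counts, which were used with voom as an alternative. The fold of 1.5 is the one the study uses for its pathway analysis. The fit was checked on simulated data. Members, lists and tests were chosen with earlier results of these data known. All members are named, and from each other list up to 2 called genes per direction, largest change first, whose mean log2 value was 0 or more, in each ischemia and inhibitor comparison. For some of the genes so named, values from other comparisons are given as well. Alternatives were an unadjusted p, a fold of 2 or none, a minimum of 1 CPM, median centring, quantile normalization, no variance trend, a replicate block, voom on the recovered reads, only the groups compared, and each library left out in turn, where a lone library is assumed to vary like the other groups. Promoter windows came from RefSeq and exons from GENCODE 44.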

Additional observations from a re-analysis of the deposited data

Results flagged for a closer look

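The effect of VX745 differed between the cultures for *NFKB1*, by -0.37 ± 0.083, and for *ICAM1*, by -0.32 ± 0.089 (log2, ischemic minus regular culture, interaction in limma). The value of *NFKB1* lost its adjusted p under 0.05 in 2 of 15 alternatives, without ischemic VX745 replicate 1 (0.0631) and without a variance trend (0.0586). That of *ICAM1* held in 7 of 15 and was -0.18 with quantile normalization (adjusted p = 0.207), while leaving out regular DMSO replicate 2, regular VX745 replicate 2, either ischemic DMSO replicate or either ischemic VX745 replicate gave 0.0552 to 0.115. The effect of MK25 differed for *NFKB1* by -0.36 ± 0.083, which held in 15 of 15 alternatives, and for *NFKBIA* by 0.35 ± 0.096, which held in 11 of 15. *NFKBIA* lost it without regular DMSO replicate 2, ischemic DMSO replicate 2 or ischemic MK25 replicate 1 (0.0587 to 0.0767). It differed for *TNFAIP3* by 0.28 ± 0.093, held in 7 of 15, and for *RELA* by -0.24 ± 0.08, held in 6 of 15. For *TNFAIP3*, leaving out regular DMSO replicate 2, either regular MK25 replicate, ischemic DMSO replicate 1 or ischemic MK25 replicate 1 gave 0.0616 to 0.157. For *RELA*, leaving out regular DMSO replicate 1, either regular MK25 replicate, either ischemic DMSO replicate or ischemic MK25 replicate 2 gave 0.0573 to 0.135, and with quantile normalization the value was -0.084 (adjusted p = 0.484).

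*REL* was higher under ischemia in untreated cells (0.38) and lower with DMSO (-0.26), each with an adjusted p under 0.05 and under the fold of 1.5. *NFKB1* was higher with DMSO (0.37) by the same reading, while its difference of -0.13 in untreated cells did not pass (adjusted p = 0.162) and was -0.028 without ischemic replicate 1 and -0.23 without ischemic replicate 2. In each case both ischemic libraries lay on the same side of both regular libraries, and the sides were opposite in the 2 experiments. The difference between the experiments was not tested, since they were normalized separately, and DMSO and experiment cannot be told apart.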

How the results depend on the processing

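The counts of called members in the 2 ischemia comparisons (7 and 7) moved only when a library was left out, to 6 to 7 in untreated cells, or with the fold threshold. Without a fold threshold the count was 6 for VX745 in ischemic culture, 6 for MK25 in regular culture, 6 for MK25 in ischemic culture, 8 for MK25 against VX745, 2 for the interaction of VX745 and 4 for that of MK25. With a fold of at least 2 it was 0 for MK25 in regular culture, 0 in ischemic culture and 0 for MK25 against VX745. With quantile normalization it was 3 for MK25 in ischemic culture, where *NFKBIA* (0.63) and *ICAM1* (0.69) passed the fold, against 1 as deposited. Leaving out 1 library gave 1 to 2 for MK25 in regular culture, 1 to 3 in ischemic culture and 4 to 6 for MK25 against VX745.

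Over all alternatives, 1279 of 1330 values of single members kept their side of the call rule, 14 lost a call, 37 gained one and 0 reversed a call, and among the 1279 there were 27 uncalled values that changed sign. Quantile normalization moved the share of higher genes among all called genes from 82.8% to 62.6% with VX745, from 72.6% to 56.4% with MK25 in ischemic culture, from 64.3% to 50.0% with VX745 in regular culture, and from 76.2% to 63.6% for the interaction of VX745. The share with VX745 in regular culture rests on few genes, 9 higher and 5 lower as deposited and 7 and 7 with quantile normalization. Deviations of samples with the same replicate number had correlations of -0.10 to 0.18 over 15 pairs of groups in the second experiment, 2 of them over 0.1. The single pair of the first experiment had a correlation of 0.185. Since the labels do not say how replicates were made, these values cannot show whether the number pairs samples. With the replicate number as a block, the counts of called members were equal to those without it in 9 of 9 comparisons (7, 7, 0, 0, 2, 1, 5, 0 and 0). By adjusted p alone, *NFKBIE* then passed with VX745 (0.0469) and MK25 (0.0474) in ischemic culture, and *REL* lost it under ischemia with DMSO (0.0505). With 2 libraries per group, differences near the fold of 1.5 or near the p threshold depend on single libraries, and depth did not limit any member.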
